A study of Rattus norvegicus with 12 samples.

Results

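MiR-124, miR-128a, miR-138 and miR-129-3p are miRNAs known for high expression in neurons, and their levels were followed in cells and tissue of the rat medial entorhinal cortex (MEC). They are 4 of the 375 miRNA assays on a TaqMan low density card (card A), found by their assay names without the mouse prefix. The card reads each miRNA by quantitative PCR as a Ct, the cycle at which the signal crosses a threshold, so that a lower Ct means more miRNA and 1 cycle is 1 unit on the log2 scale. Stellate samples (n = 5) held DiO positive cells of Long Evans pups: the tracer DiO was injected into the dentate gyrus at P2, and neurons that had carried it back to the MEC were sorted at P4 or P5. Non-stellate samples (n = 5) held the DiO negative cells of the same dissociated MEC, which can be other neurons, stellate neurons that the dye did not reach, or glia and vessel cells. Tissue samples (n = 2) were whole MEC dissected from Long Evans rats at P23, neither dissociated nor sorted, and their RNA was purified with a different kit from that used for the sorted cells. Viable cells from both hemispheres were pooled in each sorted sample.

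A miRNA is a short RNA that guides the silencing complex to messenger RNAs, mostly through its seed, the bases next to its 5′ end, and lowers their translation and stability. MiR-124 is the classic miRNA of neuronal differentiation and represses non-neuronal transcripts, while miR-128 limits neuronal excitability and rises as neurons mature. MiR-138 acts in dendrites, where it restrains the growth of spines, and miR-129 is linked to the control of ion channels and of synaptic strength; its hairpin gives mature miRNAs from both arms.

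The mature sequences show which of these miRNAs share a seed. Primer and probe sequences were not used, so what else each assay may read is not shown. RefSeq (GRCr8, the rat assembly) gave sequences for 3 of the 4 miRNAs, and for miR-129-5p, the opposite arm of the miR-129 hairpin, which also has an assay on the card. They are printed 5′ to 3′ with the seed, bases 2 to 8, in capitals.
miR-128a (rno-miR-128-3p): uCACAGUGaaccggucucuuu
miR-138 (rno-miR-138-5p): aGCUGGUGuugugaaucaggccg
miR-129-3p (rno-miR-129-2-3p): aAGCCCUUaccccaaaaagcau
miR-129-3p (rno-miR-129-1-3p): aAGCCCUUaccccaaaaag
miR-129-5p (rno-miR-129-5p): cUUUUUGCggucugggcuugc
The seeds differ from each other, except that the 3p arms of both miR-129 hairpins share theirs. Among the 724 mature rat sequences of the table, no other entry carried the seed of miR-128-3p, miR-138-5p or miR-129-5p, and none beyond those 2 that of miR-129-3p.

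The table placed miR-128, miR-138 and miR-129 at 2 loci each. MiR-128-3p is encoded on chromosome 13 (chr13:42251933-42251953, plus strand, within the span of the protein-coding gene R3hdm1) and on chromosome 8 (chr8:120963807-120963827, minus strand, within the span of Arpp21). MiR-138-5p is encoded on chromosome 8 (chr8:131178456-131178478, plus strand, within annotated long noncoding RNA genes) and on chromosome 19 (chr19:10680184-10680206, minus strand, within the span of Slc12a3). Exon structure was not used here, so whether the hairpins are intronic is not stated. The mature sequences of the 2 loci were identical in both cases, so a Ct for miR-128a or miR-138 is the sum of both sources. The 3p arms of miR-129 lie at chr3:100657405-100657426 (minus strand) and chr4:58589759-58589777 (plus strand). The annotated 19 bases of the latter equal the first 19 of the 22 bases of the former, and the assay name does not tell which of them it reads.

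All 4 miRNAs had a determined Ct in all 12 samples. Across samples, 203 to 260 of the 375 assays were determined in sorted cells, and 292 and 302 in tissue. The reference RNA, the small nuclear RNA U6, had a mean Ct over its 4 wells of 16.50 to 20.23 in sorted cells, and of 15.96 and 15.59 in tissue. Non-stellate samples 3 and 5 stood apart. They had the fewest determined assays (216 and 203), sample 3 had the widest spread of its U6 wells (SD 0.817 cycles), and 1 label field describes both samples as labelled cells while their title, source and fluorescence give them as DiO negative. They were kept as non-stellate, and the log2 differences of the 4 miRNAs are given with and without them. Ranks, Ct distances and paired fits include them.

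Markers of other cells were present at different levels. The oligodendrocyte miRNAs miR-219 and miR-338-3p were undetermined in 8 and 7 of the 10 sorted samples and determined in both tissue samples. The 4 miRNAs of the vascular list (miR-126-3p, miR-126-5p, miR-143 and miR-145) were determined in every sample, except miR-143 in 1 non-stellate sample. Their summed level, expressed relative to a U6 level of 1000, ranged from 0.844 to 16.0 in stellate, 0.501 to 3.77 in non-stellate and 87.3 to 126.0 in tissue samples. By in situ hybridization at P23, the study found dense miR-143 signal in stellate neurons and staining in only part of the vessels. MiR-143 is therefore not a marker of vessels alone here. Of the 6 blood and microglial assays, 5 were determined in each sorted sample and 6 in tissue, with summed levels of 1.83 to 26.8 in stellate and 48.4 to 58.9 in tissue samples. In non-stellate samples that sum had a median of 3.33 and reached 368000 in 1 sample, through a single miR-155 well with a Ct of 11.33. For the choroid plexus and ependyma list, 4 or 5 of 6 assays were determined in each sorted sample, and the sum was 1.59 to 11.5 in stellate, 0.716 to 4.03 in non-stellate and 24.5 to 25.5 in tissue samples. Its 4 tested assays went in different directions. The log2 difference of tissue minus sorted cells with U6 was 3.76 for miR-204, 1.14 for miR-34c, 0.90 for miR-34b-3p and -4.43 for miR-449a. On the U6 scale most of the card was higher in tissue. Relative to the median assay, the vascular sum was 2.38 to 21.3 in stellate and 23.9 to 27.0 in tissue samples. The blood and microglial sum was then 4.32 to 37.8 and 12.6 to 13.3. That of choroid plexus and ependyma was 4.48 to 18.8 and 5.25 to 7.01. Non-stellate samples had 2.25 to 6.68 (vascular), 3.68 to 5.68 (choroid plexus and ependyma) and a median of 5.34 (blood and microglia).

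The first comparison asked whether stellate neurons differ from the other MEC cells in these miRNAs. All 4 had a higher mean level in stellate cells after scaling to U6, by 1.59-fold (miR-129-3p) to 3.25-fold (miR-138). None passed the test, and no other assay did either: limma gave 0 of 222 tested assays at an adjusted p under 0.05 (0.0%), with 16 at an unadjusted p under 0.05. The study, with its own filter and test, reported several miRNAs as up-regulated in the labelled cells, miR-143 and miR-150 among them. MiR-138 and miR-128a were the members with the larger differences and were higher in stellate cells in every pair of samples, as were 10.8% of tested assays.

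MiR-138, the dendritic miRNA, varied most from sample to sample. Its Ct minus the U6 mean was 4.99, 5.44, 7.15, 6.37 and 7.47 in stellate samples 1 to 5, and 6.40, 7.44, 10.44, 7.30 and 8.32 in non-stellate samples 1 to 5. The groups overlapped: non-stellate samples 1, 2 and 4 lay among the stellate values, and non-stellate sample 3 lay far below all others in level. On the log2 scale the difference was 1.70 ± 0.79 (SE, n = 5 and 5; 95% interval -0.04 to 3.43; limma unadjusted p = 0.0541, adjusted p = 0.587). An exact two-sided permutation test of the 5 against 5 samples, which ignored the pairs, gave p = 0.0635. The smallest p possible in this unpaired test is 0.00794. Without non-stellate samples 3 and 5 the difference came down to 0.76 (limma adjusted p = 0.991).

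MiR-128a, which dampens excitability, had values of 8.51, 6.11, 7.24, 7.42 and 6.80 in stellate samples and 9.08, 8.60, 10.28, 7.83 and 7.23 in non-stellate samples on the same scale. Stellate samples 2 and 5 lay above every non-stellate sample in level, and the other 3 lay inside the non-stellate range. The difference was 1.39 ± 0.67 (SE; 95% interval -0.07 to 2.85; limma unadjusted p = 0.0606, adjusted p = 0.587), and the exact permutation p was 0.0714. It was 1.29 without non-stellate samples 3 and 5. In raw Ct, before any scaling, every stellate sample (23.30 to 26.26) came before every non-stellate sample (26.32 to 28.20), as was the case for 4.05% of tested assays. Raw Ct is not corrected for input. The median Ct of a sample was also early in stellate samples, at 27.96 to 29.51 against 28.88 to 30.94 in non-stellate samples.

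MiR-124, the marker of neuronal identity, read 10.96, 9.09, 10.30, 10.59 and 10.96 in stellate samples and 11.65, 11.16, 12.85, 10.46 and 10.62 in non-stellate samples. Non-stellate samples 4 and 5 lay inside the stellate range. The difference was 0.97 ± 0.60 (SE; 95% interval -0.34 to 2.28; limma adjusted p = 0.629; exact permutation p = 0.111), and 0.71 without non-stellate samples 3 and 5.

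MiR-129-3p read 10.62, 9.35, 9.20, 9.34 and 10.73 in stellate samples and 10.07, 10.65, 11.98, 9.62 and 10.27 in non-stellate samples. The groups overlapped over most of their range. The difference was 0.67 ± 0.58 (SE; 95% interval -0.61 to 1.94; limma adjusted p = 0.762; exact permutation p = 0.270), and without non-stellate samples 3 and 5 it was 0.26.

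**Figure D1:**
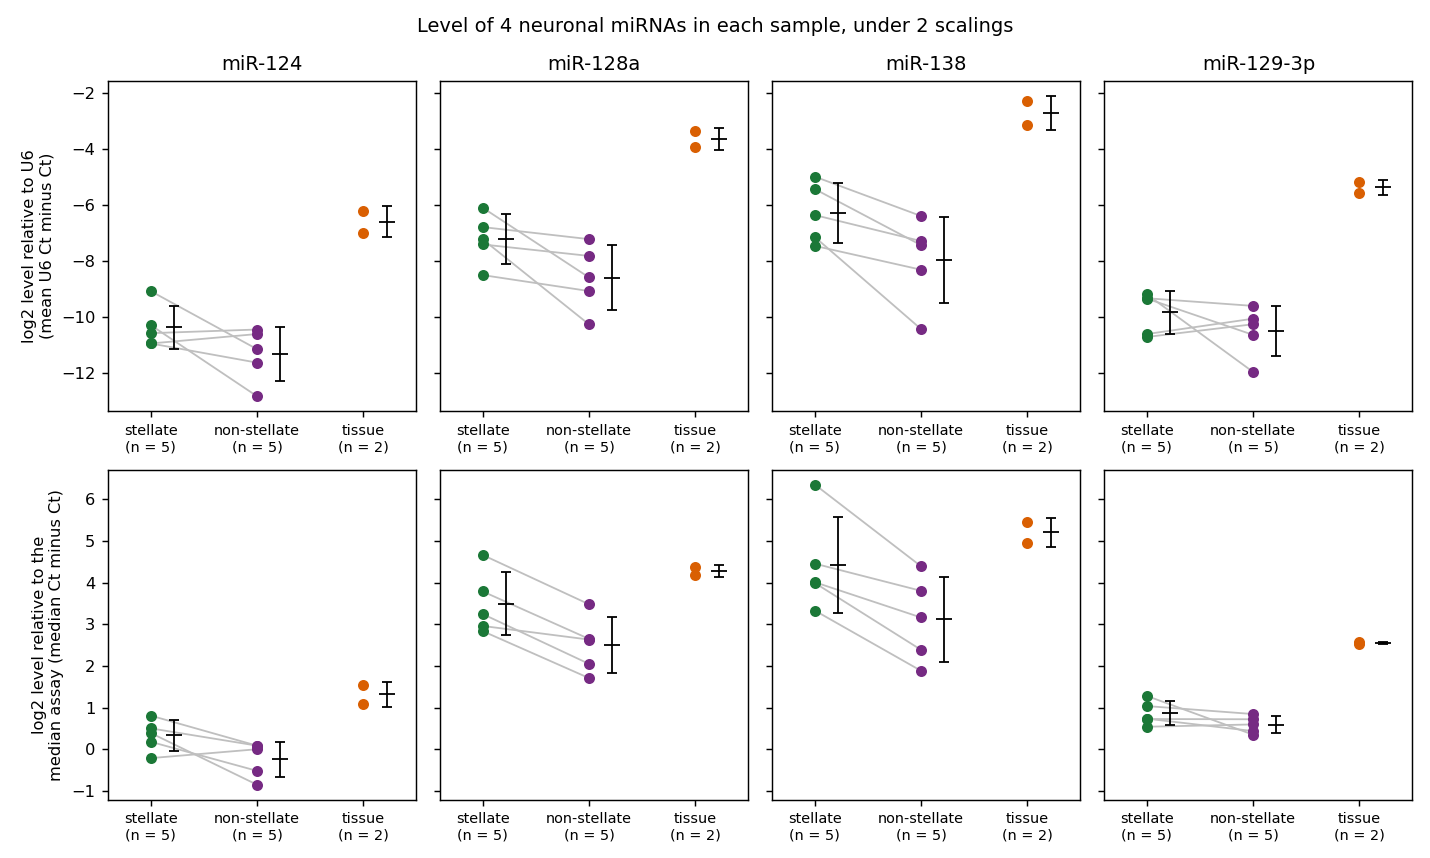
Level of each miRNA in every sample, relative to U6 (upper row) and to the median assay of the sample (lower row), both on a log2 scale where higher means more miRNA; points are samples, grey lines join stellate and non-stellate samples of the same replicate number, and black bars give mean ± SD. The lines of miR-128a and miR-138 fall from stellate to non-stellate in 5 of 5 pairs in both rows, and the tissue samples lie above all sorted samples in the upper row.

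Sorted samples of the same replicate number were read as pairs, since the labelled and unlabelled cells came from the same 5 biological replicates. Within pairs 1 to 5, the log2 difference of miR-138 was 1.41, 2.01, 3.29, 0.93 and 0.85 in favour of stellate cells. For miR-128a it was 0.57, 2.49, 3.04, 0.41 and 0.43. Both were thus higher in 5 of 5 pairs, which held for 10.8% of the 222 tested assays, and for 11.7% when each sample was centred on the median of its assays. In the pairs that leave out samples 3 and 5, both were higher in all 3, as were 23.4% of tested assays. MiR-124 was higher in 3 of 5 pairs with U6 and in 4 of 5 with median centring, and so was miR-129-3p.

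Differences of the whole card also varied between pairs. The median difference over the 222 assays was -0.45, 1.27, 1.77, 0.02 and -0.60 in pairs 1 to 5, and over all 10 sorted samples it was 0.46 with U6 and 0.07 with median centring. Against that median, the differences stood higher by 1.24 for miR-138, 0.93 for miR-128a, 0.51 for miR-124 and 0.21 for miR-129-3p. These values are the same under either scaling by construction, because each scaling subtracts 1 value per sample from every assay. With median centring the log2 differences themselves were 1.30 ± 0.64, 0.99 ± 0.44, 0.57 ± 0.29 and 0.27 ± 0.23 (SE, in the same order), and again limma called 0.0% of the 222 assays. Without non-stellate samples 3 and 5 the median-centred differences were 0.60, 1.13, 0.55 and 0.10, so that those of miR-138 and miR-129-3p were more than 1.5 times smaller. In the fit that takes the pairs into account as a replicate block, the limma unadjusted p of miR-138 was 0.0213 with U6 and 0.00321 with median centring, and that of miR-128a was 0.062 and 0.00462. Over the 222 assays the adjusted p was 0.393 and 0.11 for miR-138 and 0.459 and 0.11 for miR-128a, so no call was made. In order of the difference, miR-138 was 26th, miR-128a 31st, miR-124 61st and miR-129-3p 87th of 222 from the top. The vascular list (4 of 4 assays) and the choroid plexus and ependyma list (4 of 4 tested) also had differences above 0, as did 163 of the 222 tested assays with U6 and 117 with median centring. Their medians were 1.42 and 1.45 with U6 and 1.02 and 1.06 with median centring, with no assay called, and their part in the members' differences was not tested. The largest difference of the vascular list was that of miR-143 (2.69 with U6, 2.29 with median centring), which the study also located in stellate neurons. MiR-143 was undetermined in 1 non-stellate sample, which entered these differences as a Ct of 40.

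**Figure D2:**
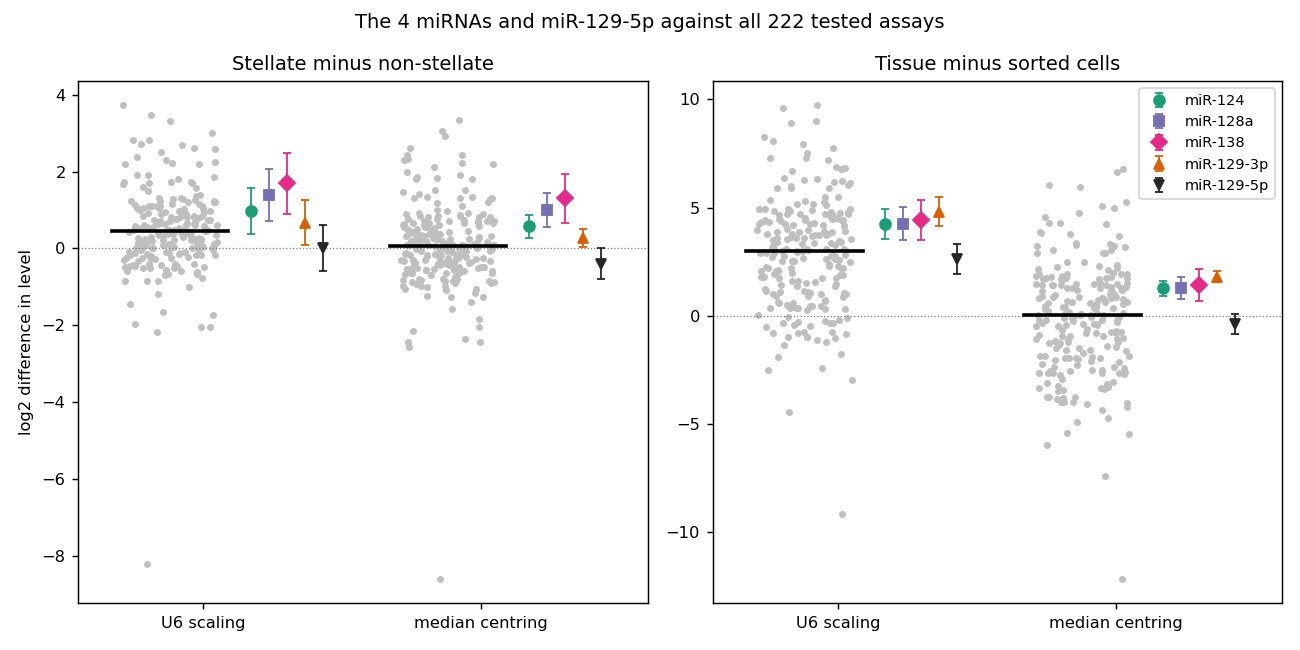
Log2 difference in level of each of the 222 tested assays (grey points, spread sideways for visibility; black line, median) and of the 4 miRNAs and miR-129-5p (coloured symbols, ± SE), for stellate minus non-stellate cells (left) and tissue minus sorted cells (right), under both scalings. The 4 miRNAs lie above the median of the card in each panel, while miR-129-5p lies below it. Each scaling shifts all assays alike, so the position relative to the median is the same under both by construction. The lowest grey point on the left is miR-155, at -8.21 with U6.

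The second comparison set P23 tissue against the mean of the sorted groups. With U6, all 4 miRNAs rose in tissue, by 19.1-fold (miR-124) to 28.0-fold (miR-129-3p), but so did most of the card: 62.2% of the 222 tested assays were called higher in tissue and 1.35% lower, and the median log2 difference was 3.02. For each of the 4, both tissue samples lay above all 10 sorted samples on this scale, as they did for 68.0% of tested assays. With median centring, which removes that common shift, the calls were 23.9% higher (53 assays) and 25.2% lower (56), against 138 and 3 with U6. Of the members, miR-124 and miR-129-3p then remained called, and miR-128a and miR-138 did not. Age, sorting and the RNA kit differ together between the groups and cannot be told apart, nor can fewer cells of a type be told apart from less RNA per cell.

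MiR-129-3p showed the largest and steadiest difference of the 4. Its Ct minus U6 was 5.18 and 5.57 in tissue, against 9.20 to 11.98 in the 10 sorted samples. The difference was 4.81 ± 0.67 (SE, n = 2 against 10 samples, the latter from 5 replicates; limma adjusted p = 9.25e-05), and with median centring 1.82 ± 0.26 (limma adjusted p = 0.00018). Its 2 tissue samples, at median-centred Ct of -2.57 and -2.53, lay above every sorted sample in level (-1.28 to -0.35), which 27.0% of tested assays did. This miRNA was called in tissue against stellate cells alone (1.68) and against non-stellate cells alone (1.96), also with median centring. Without non-stellate samples 3 and 5 the differences were 4.61 with U6 and 1.96 with median centring, both called.

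MiR-124 read 6.209 and 7.003 in tissue and 9.09 to 12.85 in sorted cells. The difference was 4.26 ± 0.70 (SE; limma adjusted p = 0.000245) with U6 and 1.27 ± 0.34 (limma adjusted p = 0.00992) with median centring, where both tissue samples (-1.53 and -1.10) again lay above all sorted samples (-0.81 to 0.85). Without non-stellate samples 3 and 5 the differences were 4.13 and 1.48, both called. Against stellate cells alone the median-centred difference was 0.98 and just missed the threshold (limma adjusted p = 0.0507), while against non-stellate cells it was 1.56 (limma adjusted p = 0.00524).

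MiR-128a read 3.37 and 3.92 in tissue, against 6.11 to 10.28 in sorted cells, a difference of 4.27 ± 0.78 (SE; limma adjusted p = 0.000483). With median centring it was 1.28 ± 0.51 (95% interval 0.14 to 2.41; limma adjusted p = 0.0583). There the tissue samples (-4.38 and -4.18) no longer stood clear, since stellate sample 5 (-4.67) exceeded both in level. Without non-stellate samples 3 and 5 the difference was 4.22 with U6, and with median centring it was 1.57 and called (limma adjusted p = 0.0256). Against stellate cells alone the median-centred difference was 0.78 (limma adjusted p = 0.274), and against non-stellate cells alone 1.77 (limma adjusted p = 0.0225).

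MiR-138 read 2.28 and 3.14 in tissue, against 4.99 to 10.44 in sorted cells, a difference of 4.42 ± 0.93 (SE; limma adjusted p = 0.00127). Median centring gave 1.43 ± 0.75 (95% interval -0.23 to 3.09; limma adjusted p = 0.139), and stellate sample 1 (-6.36) then exceeded both tissue samples (-5.46 and -4.96). Without non-stellate samples 3 and 5 the differences were 3.95, called, and 1.30, not called (limma adjusted p = 0.145). Against stellate cells alone the difference was 0.78 (limma adjusted p = 0.456) and against non-stellate cells alone 2.08 (limma adjusted p = 0.052). For each member the order of mean levels was tissue, stellate, non-stellate on both scales. The difference between stellate and non-stellate cells passed the adjusted threshold for none of them, with or without the pairs in the fit.

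Between sorted cells and tissue, 4 of 4 assays of the vascular list were called higher with U6 and 2 of 4 with median centring. Of all tested assays, 62.2% were called higher with U6 and 23.9% with median centring. Of 5 tested blood and microglial assays, 4 were called higher with U6 and 1 with median centring, beside the same shares of the card. The choroid plexus and ependyma list had 1 of 4 called higher under either scaling (miR-204). It had 1 called lower with U6 (miR-449a) and 2 with median centring (miR-449a and miR-34b-3p), against 1.35% and 25.2% of all tested assays. Their part in the members' differences was not tested.

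Within a sample, the distance in Ct between a pair of miRNAs needs no scaling, although a distance also holds the unknown efficiencies of the assays. By mean Ct in each group, miR-138 came earliest among the members, then miR-128a, then miR-129-3p and miR-124 close together. In stellate sample 5 and non-stellate samples 3 and 5, miR-128a came before miR-138. In stellate sample 2, miR-124 came before miR-129-3p. Among the 176 assays determined in all 12 samples, miR-138 ranked 4 to 19 in stellate, 10 to 52 in non-stellate samples, and 4 and 7 in tissue. MiR-128a ranked 11 to 43, 29 to 48, and 15 and 17. MiR-129-3p ranked 59 to 82 in stellate and 69 to 80 in non-stellate samples, and 36 and 38 in tissue, and miR-124 ranked 72 to 95, 86 to 104, and 55 and 62.

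MiR-124 and miR-128a kept the steadiest distance among the pairs of members. MiR-124 trailed miR-128a by 3.17 ± 0.62 cycles in stellate samples (SD, n = 5), 2.75 ± 0.37 in non-stellate samples (SD, n = 5), and 2.84 and 3.08 in tissue. The SD over all 12 samples was 0.48 cycles, and of all 175 other assays determined in every sample, miR-124 had the smallest such SD to miR-128a. In the other direction, miR-128a ranked 6th of 175 in its SD to miR-124. MiR-138 kept no fixed distance to the other members, with SDs over 12 samples of 1.05 to miR-124, 1.10 to miR-129-3p and 1.30 to miR-128a. The distance of miR-128a minus miR-138 was 3.52 cycles in stellate sample 1 and -0.67 in stellate sample 5.

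The arms of the miR-129 hairpins parted between tissue and sorted cells. MiR-129-5p trailed miR-129-3p by 3.405, 2.600, 2.293, 3.087 and 2.824 cycles in stellate samples 1 to 5, and by 2.342, 2.567, 1.208, 3.256 and 1.497 in non-stellate samples 1 to 5. In tissue the distance was 4.67 and 4.73 cycles, outside the range of all 10 sorted samples and 2.19 above their mean. Against sorted cells, miR-129-5p was higher in tissue by 2.62 ± 0.69 with U6 (SE; limma adjusted p = 0.00497), which lay below the median of the card. With median centring its difference was -0.37 ± 0.46 (limma adjusted p = 0.518). Between stellate and non-stellate cells, miR-129-5p differed by 0.00 ± 0.60 with U6 (limma adjusted p = 0.999). In sorted cells the 5p assay read late, at raw Ct of 30.05 to 32.00, and its part in the distance was not tested. The distance itself was chosen after its values were seen and is given with no test. How many other pairs of assays part in this way was not counted. Among single assays with median centring, both tissue samples lay above all 10 sorted samples for 27.0% of those tested.

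**Figure D3:**
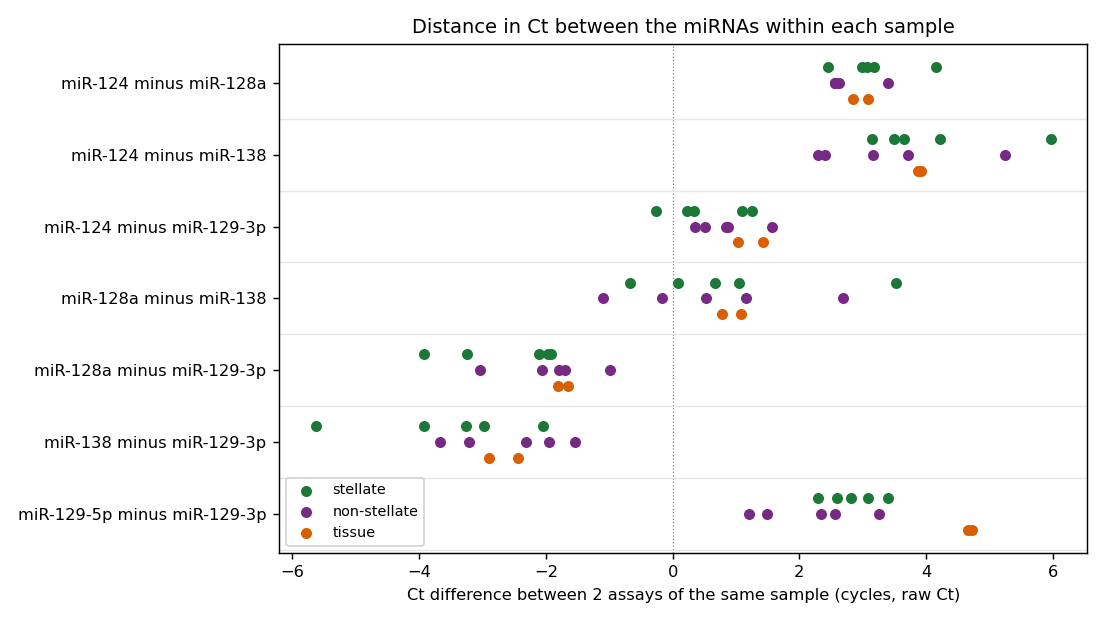
Ct difference in cycles between pairs of assays within each sample, taken on raw Ct and so free of scaling; each point is 1 sample, coloured by group (5 stellate, 5 non-stellate, 2 tissue). The tissue points lie within the sorted range for every pair of the 4 miRNAs, and at 4.67 and 4.73 cycles, beyond it, for the arms of miR-129.

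The assays whose Ct ran most nearly parallel to a member over the 12 samples were found by the SD of their distance to it, among 172 other assays determined in all samples. For miR-124 they were miR-139-5p (SD 0.39 cycles), miR-204 (0.41) and miR-495 (0.43), where the median over the 172 assays was 1.12. MiR-129-3p shared 2 of these, with miR-495 at 0.33, miR-139-5p at 0.41 and miR-301a at 0.44 (median 1.14). For miR-128a the nearest were miR-376b (0.57), miR-221 (0.64) and miR-204 (0.67; median 1.23), and for miR-138 miR-539 (0.57), miR-487b (0.61) and miR-409-3p (0.64; median 1.64). These points share the step from sorted cells to tissue, which most of the card took. MiR-204 also stands on the choroid plexus and ependyma list. No name appeared among the nearest of both miR-138 and another member.

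Of 14 further neuronal miRNAs with an assay on the card, 13 could be tested. None was called between stellate and non-stellate cells with either scaling, 8 of 13 had a higher mean in stellate cells with U6, and their median difference of 0.39 lay below that of the card (0.46). With U6 the smallest unadjusted p-values belonged to miR-132, miR-134, miR-218 and miR-488. Their log2 differences of stellate minus non-stellate cells were 1.16, 1.23, 1.24 and -1.96, each with a limma adjusted p of 0.587 or 0.629. With median centring they belonged to miR-132 (0.77), miR-9 (-0.80), miR-135a (-0.89) and miR-488 (-2.35), with limma adjusted p of 0.343 to 0.35. MiR-488 was undetermined in 1 of the 10 sorted samples, a stellate one, which entered both of its differences as a Ct of 40.

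In tissue, 10 of the 13 were called higher with U6 (against 62.2% of all assays) and 6 with median centring (against 23.9%), with median log2 differences of 4.16 and 1.18. The 6 called under both scalings were miR-384-3p and miR-384-5p, the arms of a neuronal hairpin, miR-137, a regulator of neuronal maturation, miR-218, known from motor neurons, miR-132, which is induced by activity, and miR-135a. Their median-centred differences ran from 2.20 ± 0.42 (miR-135a) to 6.77 ± 1.98 (miR-384-3p; SE, limma adjusted p = 0.0155), the latter undetermined in 3 of 10 sorted samples. MiR-137 stood at 4.23 ± 0.54 (limma adjusted p = 9.76e-05), and was thus above every member, whose highest value was the 1.82 of miR-129-3p. MiR-9, a miRNA of neural progenitors and neurons, miR-7a, miR-135b and miR-383 were called with U6 only, and with median centring stood between -0.09 (miR-135b) and 1.18 (miR-383). MiR-134, which limits spine size, had a log2 difference of 1.02 with U6 (limma adjusted p = 0.219) and fell by 1.97 with median centring (limma adjusted p = 0.0154). MiR-34a and miR-488 were called under neither scaling: miR-34a had differences of 1.91 with U6 and -1.08 with median centring (limma adjusted p = 0.0673 and 0.0548), and miR-488 of 3.01 and 0.02.

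**Figure D4:**
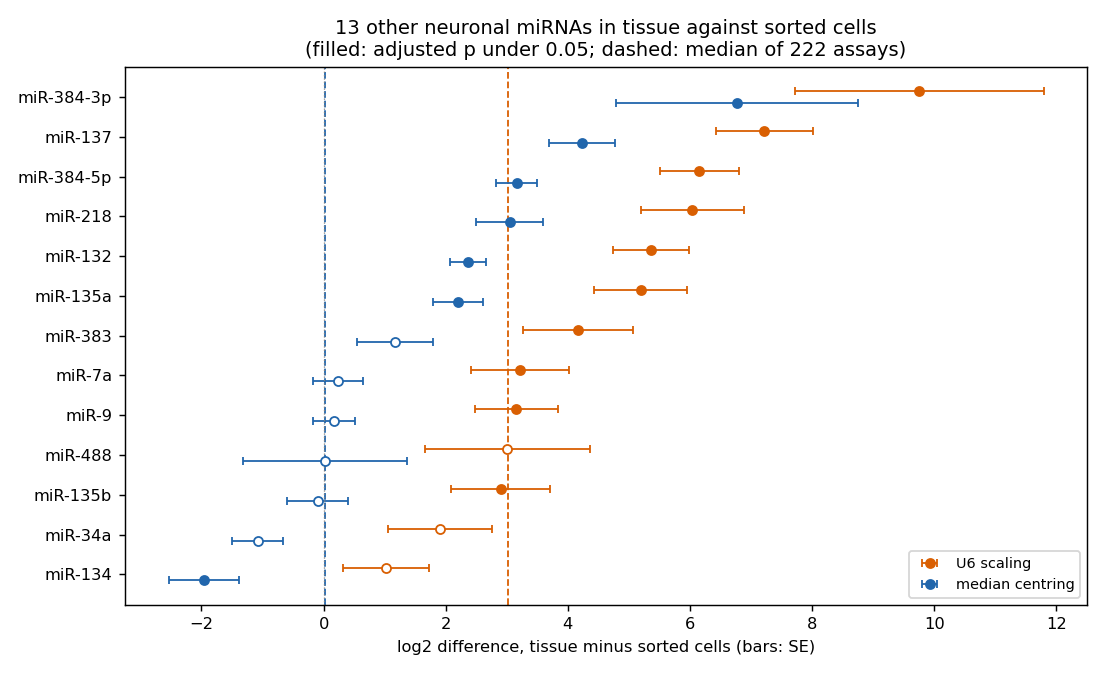
Log2 difference of tissue minus sorted cells for 13 further neuronal miRNAs, with U6 scaling (orange) and median centring (blue); points are limma estimates with SE bars, filled where the adjusted p was under 0.05, and dashed lines mark the median of the 222 tested assays (3.02 and 0.03). MiR-137, both miR-384 arms, miR-218, miR-132 and miR-135a lie right of the dashed line in either colour, and miR-134 and miR-34a lie left of it. The side on which an assay lies is the same in both colours by construction.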

How the data were processed

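RNA of 12 samples was reverse transcribed and pre-amplified with Megaplex rodent primer pools and read on a 384-well TaqMan card. The raw table deposited by the authors holds Ct on a log2 scale that falls as abundance rises, with 40 for undetermined wells; the highest determined Ct was 38.2. In their deposited normalized table, also log2, the authors subtracted from each Ct the sample's average over 4 U6 wells, as checked here on all 384 wells (largest difference 7.1e-15). Deposited tables of the authors' own comparisons (fold changes per replicate, limma statistics) were not used. Cards give no counts, so the number of determined assays stands in for depth; apart from U6, each miRNA was read in a single well.

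Levels are minus the scaled Ct. Tests covered the 222 assays with no more than 3 undetermined wells among the 10 sorted samples. Stellate against non-stellate cells was fitted on the 10 sorted samples, and tissue against the mean of both sorted groups on all 12, with limma 3.58.1 in R 4.3.3 (lmFit, eBayes, two-sided, no block, Benjamini-Hochberg over the 222 assays, threshold 0.05). The p-values measure the spread between these samples. Exact two-sided permutation tests over 252 splits, which ignored the pairs, used scipy 1.17.1. Median centring used the 176 assays determined in every sample. The fit was tested on simulated data with known changes.

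Same-numbered sorted samples were treated as pairs, because the series' design names labelled and unlabelled cells of 5 biological replicates. Deviations from group means correlated within pairs 1 to 5 at 0.331, 0.119, 0.256, 0.155 and 0.0743 over 176 assays.

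The 4 miRNAs and the marker lists were chosen with earlier results of these data known. The text names the members, the 3 assays nearest to each by SD of Ct distance, other arms of their hairpins, and other neuronal miRNAs that passed a test or, failing that, the 4 with the smallest p. List entries without a matching assay name (such as miR-9*, miR-212 and miR-124*) were not analysed here. Alternatives changed the scaling, block, filter, handling of undetermined wells, variance moderation and the samples included; 4 combinations with median centring were added after seeing the data. Sequences are from RefSeq (GRCr8).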

Additional observations from a re-analysis of the deposited data

Results flagged for a closer look

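In 44 groups of 5 values looked at (the members and miR-129-5p on 3 scales, and their distances), 1 held a sample far from the others, where chance would give about 1 in 20, or 2.2. The Ct of miR-124 minus that of miR-128a was 3.39 cycles in non-stellate sample 5, against 2.56 to 2.63 in the other 4 non-stellate samples. That sample had the fewest determined assays (203) and the latest U6 Ct (20.23), and their part in the value was not tested.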

How the results depend on the processing

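Between stellate and non-stellate cells, the 4 miRNAs stayed higher in stellate cells and not called in all 29 alternatives, with log2 differences of 0.10 to 2.09 and limma adjusted p of 0.11 to 0.991, and 0 assays were called in each. With the replicate block, which treats same-numbered samples as pairs, the adjusted p of miR-138 was 0.393 and that of miR-128a 0.459; the block changed no call. Leaving out 1 sample or pair moved miR-138 between 1.08 (without non-stellate sample 3) and 2.09, miR-124 between 0.57 (without pair 3) and 1.29, and miR-129-3p between 0.14 (without pair 3) and 0.97. Between tissue and sorted cells, all 4 kept their direction in 28 alternatives, and 103 of 112 values kept their call. MiR-128a was not called with median centring (1.28) or quantile normalization (1.05), nor miR-138 with median centring (1.43) or global mean scaling (1.75). In the contrasts added after seeing the data, median centring against stellate cells alone left miR-124 (0.98), miR-128a (0.78) and miR-138 (0.78) without a call, with 91 assays called in place of 141, and against non-stellate cells alone miR-138 (2.08) without one. Median centring without non-stellate samples 3 and 5, also added then, left miR-138 (1.30) without a call. With no filter on assays 238 were called. Each miRNA was read in single wells, and tissue had 2 samples, which limits precision.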
